A study of Mus musculus with 6 samples.

Results

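Collagen genes were followed in cold-stimulated inguinal fat. Every row whose symbol has the form Col, a number, a and a number was taken, which gave 43 genes among the 17342 named genes of the tables. Of these, 39 were above 0 in at least 3 libraries and were kept. They fall into 10 fibrillar, 6 basement membrane (type IV) and 6 type VI collagens, and 17 members of smaller classes. The tissue was inguinal white adipose tissue (fat under the skin of the groin) of C57BL/6 mice aged 8 weeks. Rarres2-/- mice carry a knockout of Rarres2, which codes for the adipokine chemerin, and gave 3 libraries, numbered 4 to 6. Wild-type (WT) mice gave 3 libraries, numbered 1 to 3. Both genotypes were stimulated by cold, so no comparison with unstimulated fat is made here. The temperature and length of the cold, the sex of the mice and the deleted part of Rarres2 are not stated in the labels. Whether each library came from its own mouse is not stated either, and if they did not, the p-values reflect technical spread alone.

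Collagens are extracellular proteins whose chains wind into a triple helix, with glycine recurring at regular places along the helix. Fibrillar collagens pack into banded fibres that carry tension, type IV collagens join into the sheet-like network of basement membranes, and type VI collagens form beaded microfibrils between them. In fat, each adipocyte is wrapped in a basement membrane rich in type IV and type VI collagen, and fibroblasts and progenitor cells lay down most of the fibrillar collagen of the septa. Endothelial and mural cells of the vessels also make type IV collagen.

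The genes of the classes differ in build, which the choice by symbol did not use. In the longest transcript of each tested gene in GENCODE M21, exons of 54 bases made up 46.5% of 329 inner exons of fibrillar genes, 4.08% of 147 in basement membrane genes and 7.92% of 101 in type VI genes. Inner exons with a length divisible by 9, the number of bases that code for 1 Gly-X-Y triplet, made up 83.0%, 43.5% and 55.4%. Only length was counted, and whether these exons code for helix or start at a whole codon was not checked. Some members lie next to each other of the mouse genome (build GRCm38, also called mm10). Col4a1 (chromosome 8, 11198423 to 11312889, minus strand) and Col4a2 (chromosome 8, 11312805 to 11449287, plus strand) point away from each other, and their RefSeq bounds overlap by 85 bases. Col3a1 (chromosome 1, 45311538 to 45349706) and Col5a2 (chromosome 1, 45374331 to 45503282) meet tail to tail, 24624 bases apart with 0 protein-coding genes between them. Col6a2 and Col6a1 follow each other on the minus strand of chromosome 10, 85161 bases apart.

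The stretch where the Col4a1 and Col4a2 starts meet is shown because the genes run apart from it. The RefSeq promoter table places the Col4a1 start inside the gene bound given above, at 11312826, and the Col4a2 start at its bound, 11312805. The stretch spans the 22 bases between these starts, chr8:11312805-11312826 on the plus strand of GRCm38.p6.
Col4a1 and Col4a2 starts: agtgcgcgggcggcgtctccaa
Upstream sequence of 4 further members is shown, all from RefSeq on GRCm38.p6. Col1a2, Col3a1 and Col6a1 shared an order of libraries, described later, and Col5a3 is the fibrillar gene that did not. Each stretch is the part of the 250 bases before the listed start that lies outside annotated transcripts, 5′ to 3′ on the strand of the gene. In these 4 stretches capitals mark the motif CCAAT, the motif TATAAA and the motif GGGCGG, each searched on both strands. The Col4a1 and Col4a2 stretch above was not marked, and it holds GGGCGG in lower case. Col1a2 is from chr6:4505368-4505492 (plus), Col3a1 from chr1:45311288-45311537 (plus), Col5a3 from chr9:20815118-20815317 (minus) and Col6a1 from chr10:76726169-76726294 (minus).
Col1a2: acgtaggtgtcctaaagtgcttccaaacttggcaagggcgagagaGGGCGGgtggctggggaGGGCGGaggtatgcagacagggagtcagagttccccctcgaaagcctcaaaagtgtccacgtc
Col3a1: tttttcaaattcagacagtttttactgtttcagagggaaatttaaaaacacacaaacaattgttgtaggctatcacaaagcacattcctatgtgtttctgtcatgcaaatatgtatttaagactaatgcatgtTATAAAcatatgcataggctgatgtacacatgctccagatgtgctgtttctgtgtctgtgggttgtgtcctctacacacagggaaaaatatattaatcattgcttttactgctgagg
Col5a3: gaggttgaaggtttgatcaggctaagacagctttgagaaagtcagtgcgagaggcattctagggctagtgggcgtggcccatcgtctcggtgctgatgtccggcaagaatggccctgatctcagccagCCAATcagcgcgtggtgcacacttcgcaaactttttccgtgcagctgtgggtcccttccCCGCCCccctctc
Col6a1: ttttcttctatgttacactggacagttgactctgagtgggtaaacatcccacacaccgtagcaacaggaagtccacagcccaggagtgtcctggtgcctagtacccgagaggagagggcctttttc
Over the whole 250 bases before a start, 13 of the 16 tested collagens had sequence. For each motif, a collagen with several windows (Col18a1 and Col6a2) counted if any window matched, while the share over all genes is per window. CCAAT was in 7 of these 13, against 33.8% of 32851 windows of all genes. TATAAA was in 1, Col3a1, against 12.4% of all windows, and GGGCGG in 8, against 32.7%. A match is a description of letters only. The printed Col3a1 stretch holds 35.2% G and C and that of Col1a2 59.2%, although these genes had the same order of libraries.

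Levels are FPKM, fragments scaled by transcript length and by library size, so genes can be set beside each other. Of the 39 kept genes, 16 averaged 1 FPKM or more and were tested with limma on log2(FPKM + 1) together with all 11086 genes at that level, and fold changes of genes with low FPKM are understated there. The filter fell between Col16a1 (mean 2.90 FPKM), just inside, and Col23a1 (0.966 FPKM), just outside. Rarres2 was at 0.260, 6.35 and 1.41 FPKM in Rarres2-/- libraries, against 436, 609.6 and 505 FPKM in WT libraries, so each library matched its genotype label. The log2 difference of -7.51 (SE 0.592) had an adjusted p = 0.0597 by limma and did not pass. WT replicate 1 and Rarres2-/- replicate 4 stood apart from their groups. WT replicate 1 was the lowest library for 11 of the 16 tested collagens, against 28.8% of all tested genes. In WT replicate 1 the small nucleolar RNA gene Snord2 held 62.1% of summed FPKM, while the median FPKM of tested genes was 9.05 to 9.37 in all 6 libraries. The absolute depth is unknown, and the spacing of the lowest values put WT replicate 1 at 0.531 times the depth of WT replicate 2 and the other libraries at 0.697 to 1.01 times.

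Cell type markers also differed between these libraries, and in bulk tissue fewer cells of a type and less RNA per cell cannot be told apart. The 10 fibroblast and progenitor markers, such as Pdgfra, Dcn and Pi16, were all measured, with a summed level of 1564 to 1933 FPKM in Rarres2-/- libraries and of 813, 3406 and 3112 FPKM in WT replicates 1, 2 and 3. All 10 were lowest in WT replicate 1 and highest in WT replicates 2 and 3. The 7 endothelial markers summed to 136, 38.8 and 39.6 FPKM in Rarres2-/- replicates 4, 5 and 6, against 210.3, 44.3 and 38.5 FPKM in WT replicates 1, 2 and 3. The 6 mural cell markers had the same split, at 126, 40.0 and 43.6 FPKM, against 119.5, 35.1 and 34.8 FPKM. The 6 skeletal muscle markers summed to 337, 384 and 236 FPKM in Rarres2-/- libraries, against 1145, 134 and 217 FPKM in WT libraries. The 6 Schwann cell markers summed to 98.9, 39.5 and 43.6 FPKM in Rarres2-/- libraries, against 230.3, 68.0 and 26.4 FPKM in WT libraries, so WT replicate 1 was highest for muscle and nerve markers too. The 6 lymph node markers summed to 12.8, 3.72 and 19.5 FPKM in Rarres2-/- libraries, against 5.93, 11.8 and 32.9 FPKM in WT libraries, highest in WT replicate 3. The 8 adipocyte markers, Adipoq among them, were all high and summed to 31359 to 65566 FPKM in Rarres2-/- libraries and 43213 to 51994 FPKM in WT libraries. Fabp4 held most of that sum in every library. Of the 8, 7 had a higher and 1 a lower mean log2 value in Rarres2-/-. Plin1, Cidec and Lipe, 3 of the 8, were higher in Rarres2-/- without overlap, against 5.81% of all tested genes. The 6 epithelial markers summed to at most 1.52 FPKM and the 4 chondrocyte markers to at most 1.92 FPKM, with Matn1 at 0 in all libraries. The part of these differences in the collagen values below was not tested.

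Among fibrillar collagens, the genes of the main fibre-forming chains were the most abundant members, and 5 of the 6 tested genes had a lower mean in Rarres2-/- fat. Col3a1, the only chain of type III collagen, was at 726, 414 and 578 FPKM in Rarres2-/- replicates 4, 5 and 6, against 339, 1623 and 956 FPKM in WT replicates 1, 2 and 3. WT replicates 2 and 3 lay above every other library and WT replicate 1 below them, so the genotypes overlapped. Col3a1 averaged 573 ± 156 FPKM in Rarres2-/- and 972 ± 642 FPKM in WT (SD, n = 3 each). On the log2 scale it differed by -0.53 (SE 0.566). Col1a1, which codes for the alpha 1 chain of type I collagen, was at 516, 212 and 293 FPKM in Rarres2-/- libraries, against 163, 964 and 521 FPKM in WT libraries, a log2 difference of -0.45 (SE 0.662). Its partner Col1a2, the alpha 2 chain, was at 487, 287 and 337 FPKM in Rarres2-/- libraries, against 227, 924 and 650.0 FPKM in WT libraries, with a log2 difference of -0.51 (SE 0.522). In all of these the same WT library was lowest of all 6.

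Type V collagen chains start fibrils and set their width. Col5a1 was at 43.1, 24.1 and 30.0 FPKM in Rarres2-/- libraries, against 17.9, 58.9 and 46.9 FPKM in WT libraries, a log2 difference of -0.22 (SE 0.447). Col5a2 was at 41.5, 32.1 and 37.2 FPKM in Rarres2-/- libraries, against 19.3, 68.1 and 47.4 FPKM in WT libraries, a log2 difference of -0.11 (SE 0.428). Both had WT replicate 1 at the bottom and WT replicate 2 at the top, with overlapping genotypes. Col5a3, the alpha 3 chain, did not follow them. It was at 56.7, 60.3 and 97.6 FPKM in Rarres2-/- libraries, against 53.0, 55.9 and 48.2 FPKM in WT libraries. All 3 Rarres2-/- values lay above all 3 WT values, though replicate 4 exceeded WT replicate 2 by little. The log2 difference was 0.40 (SE 0.234), and 0.16 without Rarres2-/- replicate 6, the library at 97.6 FPKM.

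The remaining fibrillar genes were near the bottom of the range. Col27a1 was at 0.395 to 1.55 FPKM in Rarres2-/- libraries and 0.425 to 1.59 FPKM in WT libraries, highest in WT replicate 1 and Rarres2-/- replicate 4. Col11a1, Col11a2 and Col24a1 did not exceed 0.766 FPKM, a value that Col11a2 reached in WT replicate 1. Col2a1, the main collagen of cartilage, was above 0 in 2 libraries and was not kept.

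**Figure D1:**
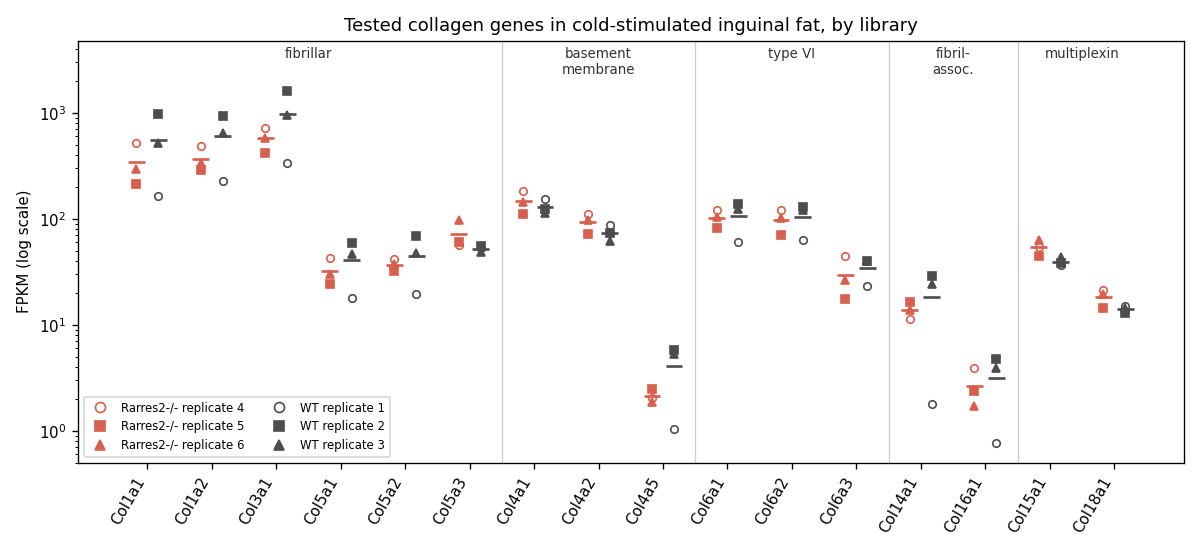
FPKM on a log axis of the 16 tested collagen genes, grouped by class. Points are libraries, horizontal bars are means of 3, Rarres2-/- libraries stand left of WT libraries, and open symbols are Rarres2-/- replicate 4 and WT replicate 1. WT libraries spread from 163 to 964 FPKM for Col1a1 but from 112 to 152 FPKM for Col4a1.

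Among basement membrane collagens, the common chains Col4a1 and Col4a2 had slightly higher means in Rarres2-/- fat, with overlapping genotypes, and varied less among WT libraries than 5 of the 6 fibrillar genes. Col4a1 was at 184, 111 and 143 FPKM in Rarres2-/- replicates 4, 5 and 6, against 152, 124 and 112 FPKM in WT replicates 1, 2 and 3. Rarres2-/- replicate 4 and WT replicate 1, the libraries with the most endothelial and mural marker RNA, were its highest. The means were 146 ± 36.6 FPKM in Rarres2-/- and 129.6 ± 20.5 FPKM in WT (SD, n = 3 each). On the log2 scale the difference was 0.15 (SE 0.237). Col4a2, the chain that pairs with it, was at 111, 71.9 and 97.8 FPKM in Rarres2-/- libraries, against 86.6, 73.3 and 62.1 FPKM in WT libraries, a log2 difference of 0.33 (SE 0.223). Unlike for Col4a1, WT replicate 1 lay below Rarres2-/- replicate 6 for Col4a2. The genotypes overlapped for Col4a2 too. Within WT, the highest library was 1.35 times the lowest for Col4a1 and 1.39 times for Col4a2, against 3.28 times (Col5a1) to 5.91 times (Col1a1) for 5 fibrillar genes and 1.16 times for Col5a3. Among Rarres2-/- libraries the classes did not separate in this way, with 1.66 times for Col4a1 and 1.54 times for Col4a2, against 1.29 times (Col5a2) to 2.43 times (Col1a1) for fibrillar genes. The median of that ratio over all tested genes was 1.35 in WT and 1.44 in Rarres2-/-.

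Col4a5, an X-linked chain of the same family, had another pattern. It was at 2.04, 2.48 and 1.86 FPKM in Rarres2-/- libraries, against 1.05, 5.79 and 5.31 FPKM in WT libraries. WT replicates 2 and 3 were the highest and WT replicate 1 the lowest, as for most fibrillar genes. The log2 difference was -0.51 (SE 0.451). Col4a3 and Col4a4, chains best known from the kidney filter, were at 0.227 to 0.443 FPKM and 0.460 to 0.783 FPKM in Rarres2-/- libraries, against 0.378 to 0.438 FPKM and 0.566 to 1.28 FPKM in WT libraries. Col4a6 was at no more than 0.212 FPKM. Summed endothelial and mural markers were highest in Rarres2-/- replicate 4 and WT replicate 1, where Col4a1 was highest too. Col4a1 in WT replicate 1 (152 FPKM) was close to Rarres2-/- replicate 6 (143 FPKM), however. Col4a2 was lower in WT replicate 1 (86.6 FPKM) than in Rarres2-/- replicate 6 (97.8 FPKM). Fibroblast markers were highest where Col4a5 was highest. None of these relations was tested.

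Type VI collagen, a trimer of 3 different chains, lay between these classes. Col6a1 was at 121, 82.7 and 104 FPKM in Rarres2-/- libraries, against 60.4, 136 and 124 FPKM in WT libraries, a log2 difference of 0.01 (SE 0.336). Col6a2 was at 122, 70.4 and 103 FPKM in Rarres2-/- libraries, against 62.9, 130.0 and 120.3 FPKM in WT libraries, a log2 difference of -0.05 (SE 0.338). For both, WT replicate 1 was the lowest library and WT replicate 2 the highest, and the genotypes overlapped. Col6a3, the longest chain, whose cleaved end is the signalling peptide endotrophin, was lower per length. It was at 44.7, 17.7 and 26.7 FPKM in Rarres2-/- libraries, against 23.2, 40.3 and 39.7 FPKM in WT libraries, a log2 difference of -0.26 (SE 0.368). Here Rarres2-/- replicate 4 was highest and Rarres2-/- replicate 5 lowest. Within WT the highest Col6a1 value was 2.26 times the lowest. Col6a6 reached 1.08 FPKM, in WT replicate 2, and Col6a4 and Col6a5 stayed at or below 0.284 FPKM.

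Of the smaller classes, the multiplexins had higher means in Rarres2-/- fat. These are collagens at the border of basement membranes, whose ends are cleaved off as restin and endostatin. Col15a1 was at 54.4, 44.2 and 62.8 FPKM in Rarres2-/- libraries, against 36.6, 38.0 and 43.3 FPKM in WT libraries. All Rarres2-/- values were above all WT values, by less than 1 FPKM between the nearest. The means were 53.8 ± 9.32 FPKM in Rarres2-/- and 39.3 ± 3.56 FPKM in WT (SD, n = 3 each). On the log2 scale the difference was 0.43 (SE 0.179). Col18a1 was at 21.1, 14.5 and 19.4 FPKM in Rarres2-/- libraries, against 15.0, 12.8 and 14.5 FPKM in WT libraries, with overlap and a log2 difference of 0.34 (SE 0.175).

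Fibril-associated collagens sit on the surface of fibres. Col14a1 was at 11.4, 16.6 and 13.8 FPKM in Rarres2-/- libraries, against 1.78, 28.9 and 24.3 FPKM in WT libraries, where the highest value was 16.3 times the lowest. Its log2 difference of 0.21 (SE 0.861) has the opposite sign to the difference of its means, 13.9 FPKM in Rarres2-/- and 18.3 FPKM in WT, because the low WT library weighs more on the log scale. Col16a1 was at 3.90, 2.37 and 1.73 FPKM in Rarres2-/- libraries, against 0.759, 4.77 and 3.88 FPKM in WT libraries, a log2 difference of -0.04 (SE 0.469). Col12a1, below the filter, was at 0.566 to 0.959 FPKM in Rarres2-/- libraries and at 0.140, 0.959 and 1.13 FPKM in WT libraries. The highest other low members were Col28a1, at 2.67 FPKM in WT replicate 1, and Col8a1, at 1.52 FPKM in Rarres2-/- replicate 4. Of the 23 kept genes below the filter, 13 were highest in WT replicate 1, the shallowest library. The share of all genes under the filter that were highest there was not computed, and the part of depth was not tested. In 0 of the 23 did the genotypes separate, against 8.2% of all 4315 genes above 0 in at least 3 libraries and under the filter.

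In the limma test 0 of the 16 tested collagens had an adjusted p under 0.05 (adjusted p = 0.999 for each), and 0 of 11086 genes passed, a background of 0.0%. At an unadjusted p under 0.05 there was 1 collagen, Col15a1 (limma), against 3.93% of all tested genes. The genotypes did not overlap in 2 of 16, Col5a3 and Col15a1, both higher in Rarres2-/-, against 10.3% of all tested genes, 5.81% higher and 4.53% lower. By class, the median log2 difference was -0.34 for the 6 fibrillar genes (1 higher, 5 lower), 0.15 for the 3 basement membrane genes (2 higher, 1 lower) and -0.05 for the 3 type VI genes (1 higher, 2 lower), beside -0.01 for all tested genes. Leaving out WT replicate 2 gave the fibrillar class 0.12 and leaving out WT replicate 1 gave it -0.91.

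The makeup of collagen RNA was more alike among Rarres2-/- libraries than among WT libraries. Fibrillar genes held 73.3%, 70.2% and 70.4% of summed collagen FPKM in Rarres2-/- replicates 4, 5 and 6, against 64.6%, 86.0% and 80.3% in WT replicates 1, 2 and 3. Basement membrane genes held 11.7%, 12.7% and 12.5% in Rarres2-/- libraries, against 18.9%, 4.78% and 6.42% in WT libraries. Type VI genes held 11.3%, 11.7% and 11.98% in Rarres2-/- libraries, against 11.5%, 7.17% and 10.1% in WT libraries. For the fibrillar and basement membrane shares the Rarres2-/- libraries lay between WT replicate 1 on one side and WT replicates 2 and 3 on the other, and the group means differed by less than the WT spread, at 71.3 ± 1.72% and 77.0 ± 11.1% for fibrillar and 12.3 ± 0.531% and 10.05 ± 7.75% for basement membrane genes (Rarres2-/- and WT, SD, n = 3 each). With 1 library left out, the difference in percentage points ran from -11.9 (without WT replicate 1) to -1.21 (without WT replicate 2) for the fibrillar share, and from -0.40 (without WT replicate 2) to 6.68 (without WT replicate 1) for the basement membrane share. The type VI share averaged 11.6 ± 0.348% in Rarres2-/- and 9.60 ± 2.22% in WT (SD, n = 3 each), and the genotypes overlapped. Its difference was 2.05 percentage points. With 1 library left out it stayed positive, from 0.83 (without WT replicate 2) to 3.02 (without WT replicate 1). Such shares do not depend on how a library was scaled. The sums behind them show which class moved. Summed fibrillar FPKM was 1030.2 to 1872 in Rarres2-/- libraries and 822 to 3694 in WT libraries, while summed basement membrane FPKM was 186 to 298 in Rarres2-/- libraries and 181 to 241 in WT libraries.

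**Figure D2:**
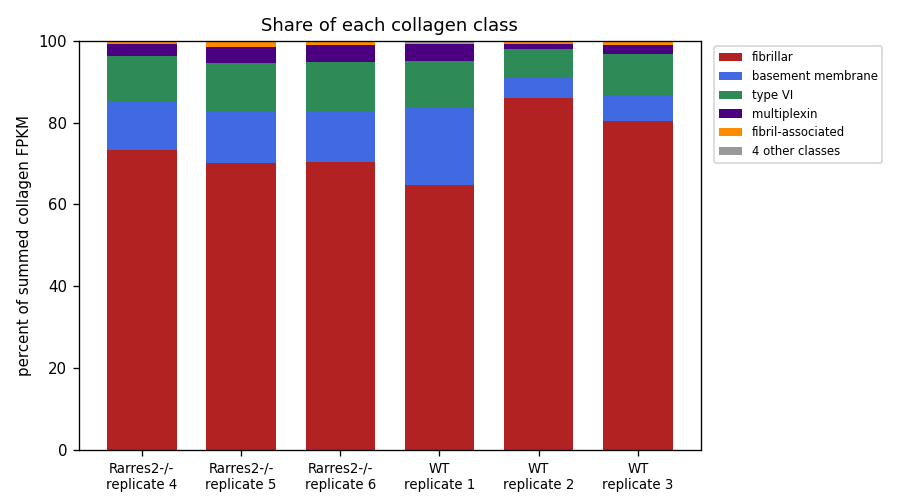
Stacked bars give the percent of summed FPKM of the 39 kept collagen genes held by each class, 1 bar per library, Rarres2-/- left. The fibrillar share is 70.2% to 73.3% in Rarres2-/- libraries and 64.6% to 86.0% in WT libraries.

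Ratios between chains of a trimer or of a mixed fibril also do not depend on scaling, and 6 were compared by exact permutation tests (two-sided, n = 3 each, smallest possible p 0.1, Benjamini-Hochberg adjusted over the 6). Col4a1 to Col4a2 was 1.65, 1.54 and 1.47 in Rarres2-/- libraries, against 1.76, 1.69 and 1.81 in WT libraries. All 3 Rarres2-/- ratios were the lower ones, with a log2 difference of -0.18 (exact permutation p = 0.1, adjusted p = 0.6). How reads from the overlap of these genes were assigned is not stated. Col1a1 to Col1a2 was 1.06, 0.739 and 0.869 in Rarres2-/- libraries, against 0.717, 1.04 and 0.802 in WT libraries (exact permutation p = 0.7). Col6a2 to Col6a1 was 0.851 to 1.01 in Rarres2-/- libraries and 0.952 to 1.04 in WT libraries (exact permutation p = 0.7), and Col6a3 to Col6a1 was 0.371, 0.214 and 0.256, against 0.383, 0.295 and 0.321 (exact permutation p = 0.4). Col3a1 to Col1a1 was 1.41 to 1.97 in Rarres2-/- libraries and 1.68 to 2.08 in WT libraries (exact permutation p = 0.8), and Col5a1 to Col5a2 was 0.751 to 1.04 and 0.866 to 0.989 (exact permutation p = 0.5). Adjusted p was 0.8 for these 5 ratios. In all 6 ratios the highest library exceeded the lowest by a smaller factor than in either gene alone.

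An order of the 6 libraries was shared by most tested fibrillar genes and 1 type VI gene. Col1a1, Col1a2, Col3a1, Col5a1, Col5a2 and Col6a1 had the identical order, from WT replicates 2 and 3 through Rarres2-/- replicates 4, 6 and 5 down to WT replicate 1. Col6a2 and Col6a3 had other orders. The shared order was picked as the most common one among the tested collagens, so a larger share in them was fixed in advance. It held for 41 of 11086 tested genes (0.37%). The looser arrangement that follows comes from the same order and has the same limit. In 8 of the 16 tested collagens, these 6 and Col14a1 and Col4a5, WT replicates 2 and 3 were the top pair and WT replicate 1 was lowest, against 7.07% of all tested genes. All 10 fibroblast markers, all 6 macrophage markers and 4 of 5 lysyl oxidase genes had this arrangement. Of 23 tested genes of collagen synthesis and processing, 6 had it. The other common arrangement, WT replicate 1 and Rarres2-/- replicate 4 as the top pair, held for 6 of 7 endothelial and 6 of 6 mural markers, for 13.7% of all tested genes, and for 1 tested collagen, Col4a1. These counts describe shared libraries and carry no test. Within the basement membrane class the members went opposite ways, so their mean is flat. In WT replicate 1 the log2(FPKM + 1) value of Col4a5 lay -0.86 from its mean over 6 libraries, against 0.17 for Col4a1 and 0.074 for Col4a2. In WT replicate 2 it lay 0.87 from its mean, against -0.12 for Col4a1 and -0.16 for Col4a2.

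**Figure D3:**
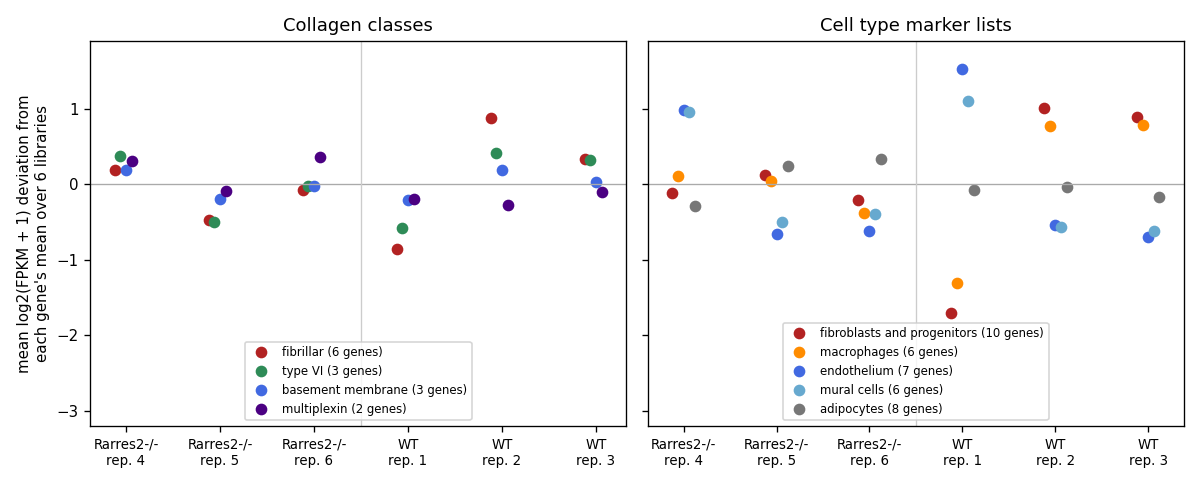
Each point is the mean, over the tested genes of a class or marker list, of the log2(FPKM + 1) deviation from the gene's own mean over 6 libraries, with Rarres2-/- libraries left of WT libraries. Fibrillar genes are at -0.85 in WT replicate 1 and 0.87 in WT replicate 2, and fibroblast markers at -1.70 and 1.01, while the mean of the 3 basement membrane genes lies between -0.21 and 0.19, a mean over unlike members.

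Without WT replicate 1 and Rarres2-/- replicate 4, the fibrillar and type VI medians lay further below 0, while Col5a3 stayed positive and Col6a1 turned negative. The median log2 difference was -1.13 for fibrillar, -0.55 for type VI and 0.09 for basement membrane genes, beside 0.03 for all tested genes. Col1a2 had a log2 difference of -1.31 (SE 0.198, adjusted p = 0.0581 by limma), Col1a1 of -1.51 (SE 0.317, adjusted p = 0.0761 by limma), Col4a5 of -1.05 (SE 0.146, adjusted p = 0.0545 by limma) and Col6a3 of -0.85 (SE 0.195, adjusted p = 0.0869 by limma). Col4a2 was at 0.31 and Col5a3 at 0.55. In that fit 0 of the 16 collagens passed, 11 had an unadjusted p under 0.05, all 11 lower in Rarres2-/-. WT replicate 1 was the lowest library for 11 of the 16, not all the same genes, and leaving it out raises their WT mean by construction. Counts of lower collagens in fits without WT replicate 1 are therefore no independent support. Of all 11086 tested genes 0.613% were called, and 24.8% had an unadjusted p under 0.05, with 11.5% lower. With 2 libraries a genotype, 11 of 16 were lower without overlap, against 26.5% of all tested genes, and 2 were higher, against 31.7%. The 10 fibroblast markers had a median log2 difference of -1.09 in that fit, all 10 lower. Called were 2 of them, Lum and Clec3b, and 1 of the 6 macrophage markers, Cd68, each lower in Rarres2-/-. The 10 fibroblast and 6 macrophage markers were all lowest in WT replicate 1, so these calls are no independent support either. With WT replicate 1 alone left out, 0 of 16 collagens and 0.0% of all tested genes passed, and 7 collagens had an unadjusted p under 0.05, all lower, against 8.77% of all tested genes and 6.48% lower. With all 6 libraries weighted by limma's array weights, 9 of 16 collagens were called, all lower in Rarres2-/-, against 13.7% of all tested genes called and 6.8% called lower. They were Col1a1, Col1a2, Col3a1, Col4a5, Col5a1, Col5a2, Col6a1, Col6a2 and Col6a3. That fit gave Rarres2-/- replicate 5 a weight of 6.19, so its Rarres2-/- side rests mainly on replicate 5, the library with the lowest Col1a1 value of its group. The lowest weights were 0.179 for Rarres2-/- replicate 4 and 0.192 for WT replicate 1. The weighted fit thus nearly leaves out the same pair, and its calls are no independent support either.

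**Figure D4:**
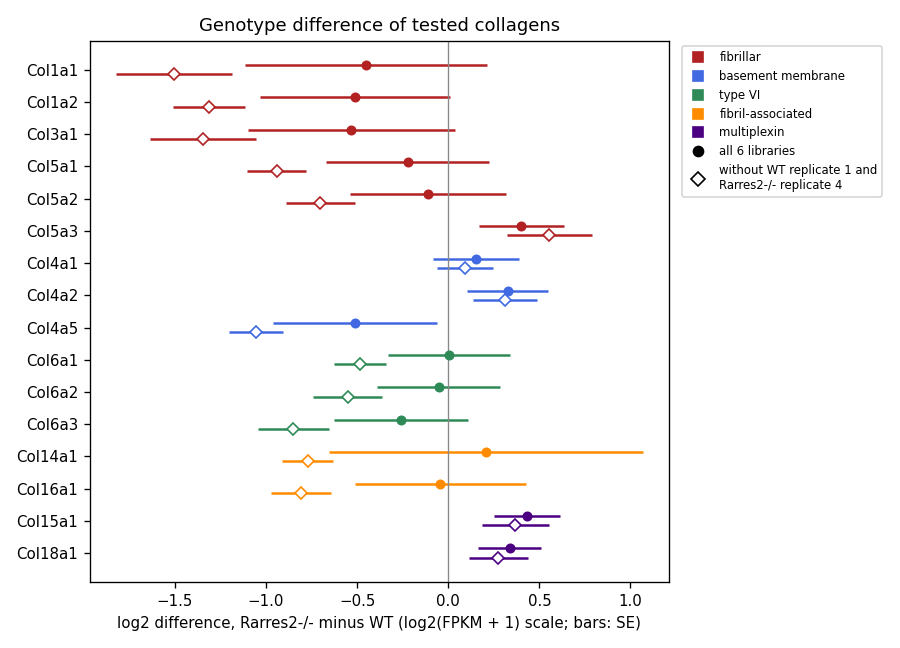
Points are log2 differences of Rarres2-/- minus WT on the log2(FPKM + 1) scale with SE bars, for all 6 libraries (filled) and without WT replicate 1 and Rarres2-/- replicate 4 (open diamonds). Col1a1 is at -0.45 and -1.51, and Col4a2 at 0.33 and 0.31.

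Genes that build, bind and anchor collagen were taken as companion lists. Of 23 tested genes of collagen synthesis and processing, 0 passed, 16 had a lower and 7 a higher mean log2 value in Rarres2-/- (median log2 difference -0.09). Without overlap, 0 of the 23 were higher and 1 was lower, against 5.81% higher and 4.53% lower of all tested genes. Leprel4, an older symbol of P3h4, a partner of the enzymes that modify collagen in the endoplasmic reticulum, was at 6.01, 5.73 and 5.97 FPKM in Rarres2-/- libraries, against 7.70, 7.47 and 7.49 FPKM in WT libraries, without overlap (log2 difference -0.31, SE 0.115). Pcolce, which speeds the cleavage of the procollagen tail, was at 105, 54.1 and 66.0 FPKM, against 53.2, 154 and 132 FPKM. Leprel2 (older symbol of P3h3) had a log2 difference of -0.40 and Tmem38b of 0.21. Without WT replicate 1 and Rarres2-/- replicate 4, Pcolce and Bmp1, the protease it assists, were called, both lower in Rarres2-/-. These were 2 of the 23, against 0.613% of all tested genes called in that fit. Of the 23, 13 were lowest in WT replicate 1, Pcolce among them, and leaving that library out raises their WT mean by construction. This count is therefore no independent support either. Of 5 lysyl oxidase genes, whose enzymes cross-link collagen, 0 passed and all 5 were lowest in WT replicate 1. Loxl2 was at 17.9, 14.5 and 17.2 FPKM in Rarres2-/- libraries, against 10.5, 36.4 and 28.0 FPKM in WT libraries. Lox had a log2 difference of 0.29, Loxl1 of -0.26 and Loxl3 of -0.21.

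Of 9 tested collagen receptor genes 0 passed, with 7 higher and 2 lower (median log2 difference 0.04). Without WT replicate 1 and Rarres2-/- replicate 4 that direction turned, with 3 of 9 higher and a median of -0.45. Of the 9, 6 were lowest in WT replicate 1, which that fit leaves out. The receptor kinase gene Ddr1 was at 14.6, 12.3 and 14.1 FPKM in Rarres2-/- libraries, against 9.73, 13.5 and 7.33 FPKM in WT libraries. Cspg4, a type VI collagen receptor of mural cells, had a log2 difference of 0.39, Itgb1 of 0.19 and Itga1 of 0.21. Among 14 laminins and other basement membrane partners 0 passed, with 5 higher and 9 lower (median log2 difference -0.05). Without overlap, 1 of the 14 was higher and 1 was lower, against 5.81% higher and 4.53% lower of all tested genes. Nid2, which links laminin to type IV collagen, was at 11.3, 10.9 and 13.3 FPKM in Rarres2-/- libraries, against 7.93, 8.91 and 9.75 FPKM in WT libraries, without overlap. Sparc, a secreted collagen-binding chaperone of type IV and fibrillar collagen, was at 1817, 1556 and 2022 FPKM in Rarres2-/- libraries, against 2181, 2933 and 2177 FPKM in WT libraries, also without overlap. The laminin genes Lama4 and Lamb2 had log2 differences of 0.36 and -0.29.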

How the data were processed

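Each library was deposited as a table of FPKM, per the file headers, with 17342 named genes. For WT replicate 3 the header gives the sample name where the others give the unit, and it was read as FPKM because its gene rows and scale were those of the other 5. Bowtie and mm10 are named in the submitters' processing notes. The FPKM program, annotation, strand and handling of reads shared by related genes were not stated, so values of similar or overlapping collagens are uncertain to that extent. Rows without a symbol (737, 0.793% to 4.91% of summed FPKM) were left out. Genes averaging 1 FPKM or more (11086) were tested with limma 3.58.1 in R 4.3.3 on log2(FPKM + 1), by genotype alone, with an eBayes trend, two-sided, at a Benjamini-Hochberg adjusted p under 0.05. Classes are described by counts and medians. In a trial on made-up data for 11086 genes the fit found 37% of the genes shifted by log2 1, found 79% of those shifted by log2 2, and falsely called 8. The made-up noise was drawn separately for each gene and library, so no library stood apart for many genes together. These rates therefore need not hold for the real libraries, where WT replicate 1 and Rarres2-/- replicate 4 did. Named are all tested fibrillar, basement membrane and type VI genes, up to 3 tested genes of each other class, and up to 4 genes of smallest p in each companion list; low members singled out for their level, and genes called without 2 libraries, were named after their values were seen. Older symbols matched 6 list genes, and Col21a1, Col26a1 and Colgalt2 had no row. Sequences and coordinates are from RefSeq on GRCm38.p6. The members and lists were chosen with earlier results of these data known.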

Additional observations from a re-analysis of the deposited data

How the results depend on the processing

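The count of collagens called was 0 in every setting tried except array weights, which called 9. The count over all genes was 1524 with array weights, 68 without WT replicate 1 and Rarres2-/- replicate 4, 1 with upper-quartile scaling, 1 when the 20 most abundant genes were left out of the scaling, 1 at 5 FPKM in 3 libraries, and 0 to 1 with 1 library left out. Class medians moved beyond the replicate spread with array weights, to -1.18 for fibrillar, -0.057 for basement membrane and -0.72 for type VI genes. They also moved without WT replicate 1 and Rarres2-/- replicate 4, to -1.13 for fibrillar and -0.55 for type VI genes, and the basement membrane median was -0.11 with no filter, where low genes join. With 1 library left out the medians ran from -0.91 to 0.12, from -0.029 to 0.33 and from -0.38 to 0.15. The causes were not tested. Leaving out that pair, the log2 ratio difference was -0.19 for Col1a1 to Col1a2 and 0.16 for Col3a1 to Col1a1, both of opposite sign to the value from all libraries. With 1 library left out, the differences ran from -0.07 to 0.21 for Col1a1 to Col1a2, from -0.16 to 0.08 for Col3a1 to Col1a1 and from -0.11 to 0.018 for Col6a2 to Col6a1, while Col4a1 to Col4a2 stayed between -0.22 and -0.14. Array weights turned the sign of Col4a1 (-0.057), Col14a1 (-0.58) and Col6a1 (-0.57). Leaving out the pair turned Col14a1 (-0.77) and Col6a1 (-0.48) and gave -0.81 for Col16a1, -1.51 for Col1a1, -0.94 for Col5a1, -0.70 for Col5a2 and -0.85 for Col6a3, a pseudocount of 0.1 turned Col16a1 (0.041), and upper-quartile scaling turned Col6a1 (-0.0048). With 1 library left out, log2 differences ran from -0.029 to 0.33 for Col4a1, -0.90 to 0.82 for Col14a1, -0.58 to 0.28 for Col16a1, -1.16 to 0.12 for Col1a1, -0.72 to 0.11 for Col5a1, -0.62 to 0.27 for Col5a2, -0.36 to 0.22 for Col6a1, -0.38 to 0.17 for Col6a2 and -0.60 to 0.049 for Col6a3. The other tested collagens kept their sign in every setting, but some moved far with 1 library left out. Without WT replicate 1 the log2 difference was -1.10 for Col1a2, -1.16 for Col3a1 and -1.07 for Col4a5, and without WT replicate 2 it was -0.091, -0.028 and -0.21. Col5a3 ran from 0.16 to 0.55, Col4a2 from 0.19 to 0.50, Col15a1 from 0.32 to 0.56 and Col18a1 from 0.23 to 0.49. No paired analysis was possible because the genotypes share no replicate number. FPKM gives no counts, so the precision of low members cannot be stated.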
